A study of Rattus norvegicus with 14 samples.

Results

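Days 1 and 14 of 1 feeding experiment were compared here. Liver of the rat strain called Kyoto was read on 2 arrays after 14 days of orotic acid and on 2 arrays after 1 day. These 4 arrays were chosen by their source labels from the 14 arrays of the study. All 4 came from rats given chow with 1% orotic acid, so day 1 was an early point of feeding and not an untreated state, and untreated Kyoto livers were not analysed here. The other arrays were 2 of Kyoto liver at day 3, 2 of Wistar liver at day 3 and 3 of Wistar liver at day 14, all on the same diet. A further 3 were of liver from Wistar rats on plain chow. RNA came from the left lateral lobe, and age, sex and pooling are not given in the labels used here. The labels do not say in so many words that each array is a separate animal, so p-values measure the spread between these samples, which may be technical.

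Orotic acid is made on the way from aspartate and carbamoyl phosphate to uridine nucleotides. Fed in excess to rats, it enters liver nucleotide pools, hinders the release of very low density lipoprotein and lets triglyceride collect in hepatocytes. The liver genes of interest are therefore those that make fatty acids, cholesterol and lipoproteins, those that burn fatty acids, and those that handle pyrimidines, ammonia and amino acids.

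Values are log2 signals of Affymetrix probe sets after quantile normalization, raised to a floor of 6.85 where lower. A difference is the day 14 mean minus the day 1 mean (2 against 2 arrays) ± its standard error. That error comes from the limma fit named below, whose variance draws on all 14 arrays and not on the compared arrays alone. Where the day 1 arrays lie far apart, it can be smaller than their spread implies. Values of a pair of arrays are given with replicate 1 first, and a difference with an array of the lower side at the floor is a bound, written "at least". Of 3181 features the upper 60% by mean signal, 1909, were tested in a limma fit across all 14 arrays, with Benjamini-Hochberg adjustment over all of them. Unless another is named, each adjusted p below is from that fit. Lists of genes are described by counts and medians, beside the median of all features, which was -0.0019.

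The first day 1 array stood apart. Across the tested features its median correlation with the other arrays was 0.895, against 0.933 to 0.952 for the other 13, and it correlated at 0.904 with its own replicate, at which 322 features lay 2-fold or more apart. The day 14 arrays correlated at 0.978, with 28 features that far apart. The array also lacked a value in 374 rows of the deposited table, as 2 Wistar arrays did in 374 and 375. Against day 1 replicate 1 the day 14 mean was 2-fold or more away for 272 features, against replicate 2 for 78, and against both in 1 direction for 29. In all, 1063 features differed from both day 1 arrays in the same direction and 845 in opposite directions. Both day 1 values, or the list median against each day 1 array, are therefore given where the arrays disagree most. All 4 arrays carry lot batch 1.

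Hepatocyte markers were near the same level on both days. All 12 on the array were tested, with a median difference of -0.0052, 6 higher and 6 lower. Albumin (Alb) read 14.48 and 14.46 at day 1 and 14.37 and 14.54 at day 14. The markers of the list that did differ at an unadjusted p under 0.05 were Apoa1, lower, and Cps1, higher, both described with their own groups.

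**Figure D1:**
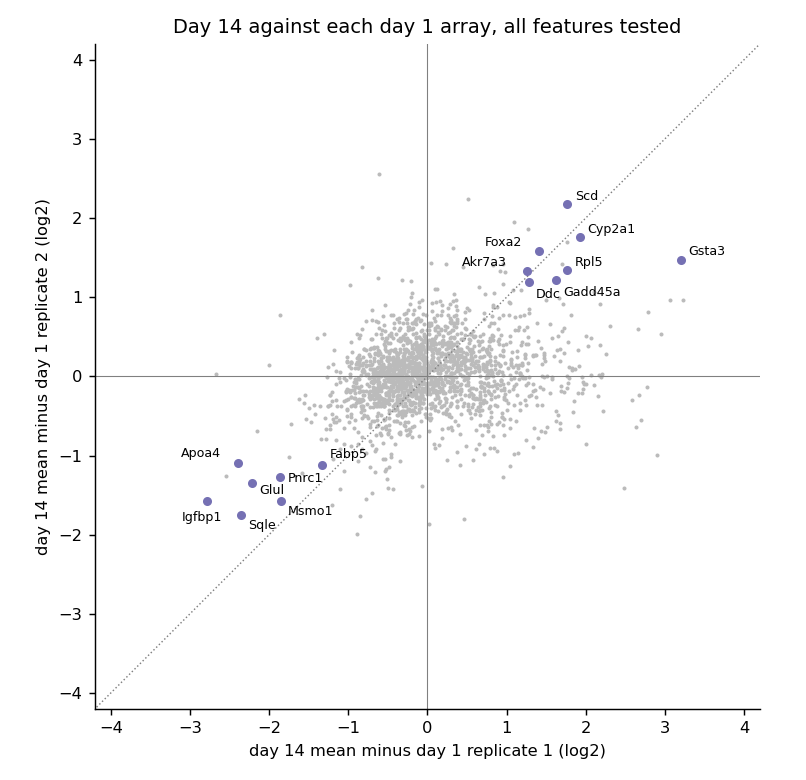
Each grey point is 1 of the 1909 tested features, with its day 14 mean minus day 1 replicate 1 on the horizontal axis and minus day 1 replicate 2 on the vertical axis, both log2; the dotted line marks equal differences, and purple points are the 15 genes with each day 14 array 2-fold or more from each day 1 array. The cloud is wider along the horizontal axis, where 272 features pass 2-fold, than along the vertical axis, where 78 do.

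Cyp2a1, a P450 that hydroxylates testosterone, was the one feature past the adjusted threshold of 0.05. It rose 3.60-fold from day 1 to day 14 (1.85 ± 0.26, adjusted p = 0.00911). Its signal was 10.50 and 10.67 at day 1, 11.71 and 11.60 at day 3, and 12.56 and 12.32 at day 14, with no overlap between the days. The deposited signals behind these values were 1427 and 1500, 3649 and 3019, and 5592 and 4695. Both day 1 arrays gave nearly the same difference, 1.93 and 1.76, so the array that stood apart did not set its size.

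That call was 0.0524% of the features tested in the higher direction, and 0 features (0%) passed in the lower direction, where 86 had an unadjusted p under 0.05. The adjusted p of Cyp2a1 was 0.0639 without day 1 replicate 1, 0.183 without day 14 replicate 1 and 0.0881 without day 14 replicate 2. It was 0.338 when only the 4 compared arrays entered, 0.171 with the 6 Kyoto arrays alone, 0.0923 with array weights and, in an alternative chosen after seeing the data, 0.144 without the 3 arrays that lack values. An exact permutation test of 2 against 2 arrays cannot give a two-sided p below 0.333.

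Below that threshold, 106 features were higher and 86 lower at an unadjusted p under 0.05, which was 5.55% and 4.50% of those tested. Both day 14 arrays lay above both day 1 arrays, whatever the size of the difference, for 363 of the 1909 features, and below them for 365. A 2-fold or larger difference without overlap was found for 50 features in the higher direction (2.62%) and 25 in the lower (1.31%). Of the 50, the day 3 mean lay between the other means for 48, nearer to day 1 for 27 and nearer to day 14 for 23. Of the 25 lower features, 21 had day 3 between, 15 nearer to day 1 and 10 nearer to day 14. The median position of day 3, on a scale from 0 at day 1 to 1 at day 14, was 0.483 for the higher and 0.405 for the lower features. These features were picked for a gap between day 1 and day 14, which by itself favours a day 3 mean between them. The counts therefore do not show a gradual change.

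A stricter description, chosen after the values were seen, asks that each day 14 array lie 2-fold or more from each day 1 array. It holds for 9 features above (0.471%) and 9 below (0.471%), of which 15 carry a gene symbol. Those above were Gsta3, Scd, Cyp2a1, Rpl5, Foxa2, Gadd45a, Akr7a3 and Ddc. Those below were Igfbp1, Sqle, Glul, Apoa4, Msmo1, Pnrc1 and Fabp5. The genes include a desaturase and a P450 on the higher side, and cholesterol, lipoprotein and glutamine genes on the lower side. Apart from Cyp2a1, none of the 15 passed the adjusted threshold in the fit of 1 probe set a gene.

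**Figure D2:**
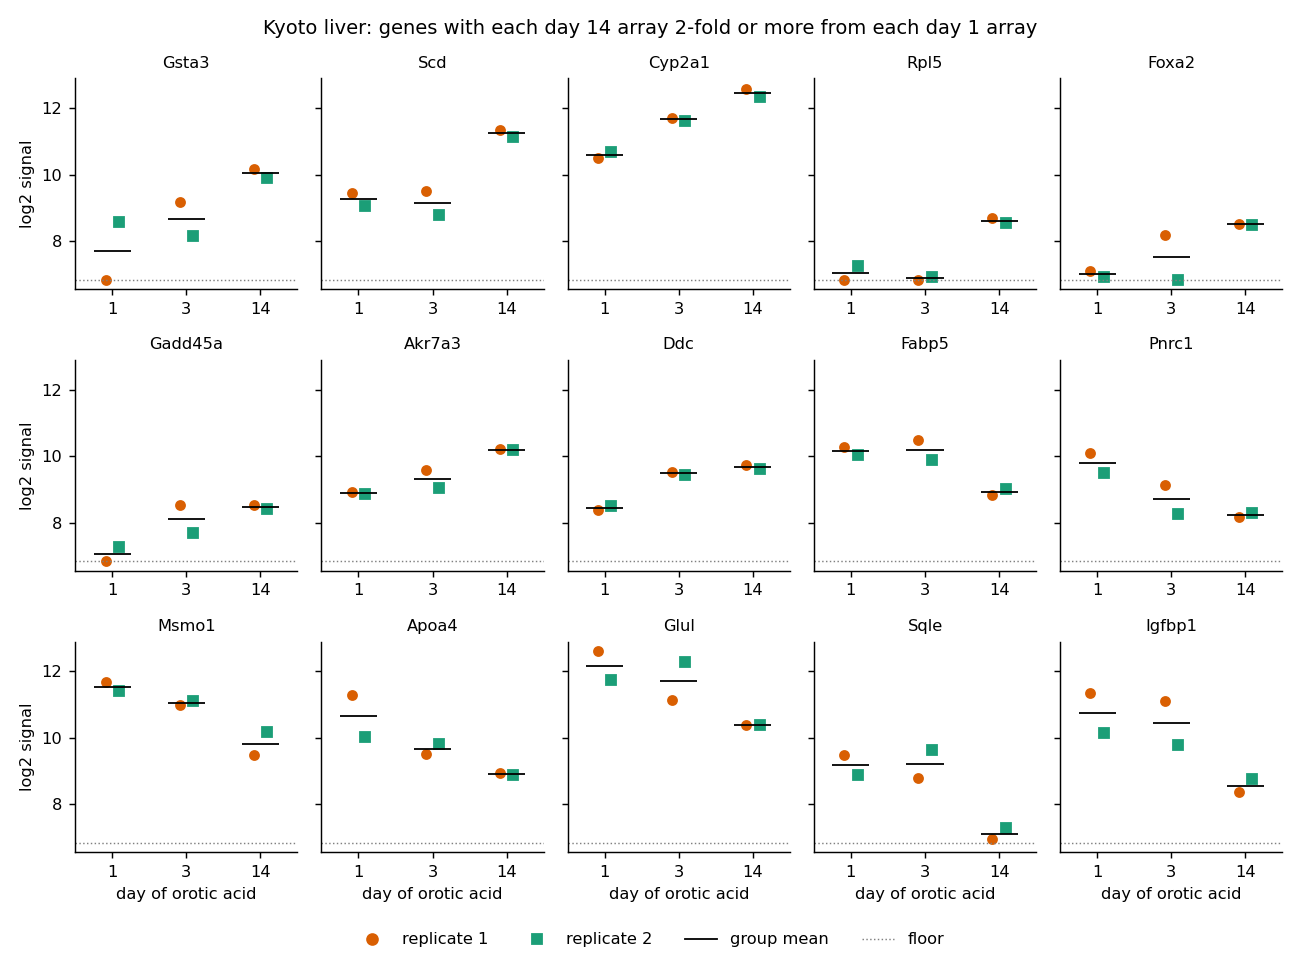
Log2 signal of the 15 genes in each Kyoto array at days 1, 3 and 14 of orotic acid, with circles for replicate 1, squares for replicate 2, black lines for group means and a dotted line at the floor of 6.85. Cyp2a1 and Ddc are already higher at day 3, while Scd, Rpl5, Sqle and Fabp5 at day 3 lie close to day 1.

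Cholesterol synthesis genes were mostly lower at day 14. The pathway runs from acetyl units through mevalonate and squalene to lanosterol and then cholesterol, and its genes respond together to sterol levels through SREBP2. Of 13 members tested, 11 had a lower mean at day 14, 5 of them at an unadjusted p under 0.05 (against 4.50% of all features), and 0 passed the adjusted threshold. The median difference was -0.58, and it was -0.52 against day 1 replicate 1 and -0.65 against replicate 2.

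The largest differences were at squalene and after lanosterol. Sqle, squalene epoxidase, read 9.48 and 8.87 at day 1, 8.78 and 9.62 at day 3, and 6.95 and 7.29 at day 14, a difference of -2.05 ± 0.45 (4.15-fold lower, adjusted p = 0.152). Msmo1, the C4-methylsterol oxidase that removes methyl groups after lanosterol, read 11.68 and 11.40, then 10.98 and 11.10, then 9.47 and 10.18 (-1.71 ± 0.37, 3.27-fold lower, adjusted p = 0.152). For both genes the day 14 arrays lay below all 4 earlier Kyoto arrays. A further probe set for Msmo1 gave -2.06. Cyp51, lanosterol demethylase, read 9.85 and 10.76 at day 1 and 8.93 and 9.77 at day 14 (-0.96 ± 0.34, adjusted p = 0.37).

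Earlier in the pathway, Mvd, mevalonate diphosphate decarboxylase, read 9.02 and 8.53 at day 1 and already 7.75 and 7.75 at day 3. At day 14 it read 7.72 and 7.75 (-1.04 ± 0.27, adjusted p = 0.157), so its lower level was present by day 3. Fdps, farnesyl diphosphate synthase and the remaining member at an unadjusted p under 0.05, named after its values were seen, read 13.34 and 12.94 at day 1 and 12.26 and 12.33 at day 14 (-0.85 ± 0.36). Dhcr7 and Ebp, which act late in the pathway, had higher means, by 0.49 and 0.13, and the other Dhcr7 probe set gave 0.04. The list mean, with each gene centred over all arrays, was -0.018 and -0.073 at day 1, -0.12 and -0.039 at day 3, and -0.86 and -0.56 at day 14, so the list mean of both day 3 arrays was near that of day 1.

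The start sites of Msmo1 and Mvd, members with among the largest differences and an entry in the promoter table, are shown with CCAAT, the letters bound by NF-Y, in capitals on either strand (ATTGG where it lies on the other strand). The sequences are from RefSeq on GRCr8 and run from 250 bases before to 50 bases after the start, at chr16:29746863-29747162 on the plus strand for Msmo1 and chr19:67414925-67415224 on the minus strand for Mvd.
Msmo1: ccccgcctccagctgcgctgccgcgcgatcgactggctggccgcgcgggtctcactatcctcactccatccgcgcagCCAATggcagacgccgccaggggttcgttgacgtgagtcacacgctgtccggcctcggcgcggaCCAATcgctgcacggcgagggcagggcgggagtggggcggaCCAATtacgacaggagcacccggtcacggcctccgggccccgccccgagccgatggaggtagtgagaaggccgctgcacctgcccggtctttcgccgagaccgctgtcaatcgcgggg
Mvd: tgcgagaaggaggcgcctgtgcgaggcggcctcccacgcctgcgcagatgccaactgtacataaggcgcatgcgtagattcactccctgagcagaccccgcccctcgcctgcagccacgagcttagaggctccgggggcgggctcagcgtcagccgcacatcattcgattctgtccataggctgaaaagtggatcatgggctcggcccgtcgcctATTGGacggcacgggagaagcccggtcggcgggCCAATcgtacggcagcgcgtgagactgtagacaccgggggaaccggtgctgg
By its first letter, Msmo1 holds CCAAT at 173, 109 and 68 bases before the start, and Mvd at 35 and 2 bases before it. The window of Cyp51, which also has an entry in the promoter table, held 0 CCAAT matches and is not printed.

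CCAAT was found in the same window of 8 of the 11 tested cholesterol genes that matched the table (Mvk, Mvd, Idi1, Fdps, Lss, Msmo1, Nsdhl and Ebp). It was found in 37.7% of all 27457 promoters and in 43.5% of the 1274 tested genes that matched. The sterol response element core TCACNCCAC was in 0 of the 11 and in 1.13% of all promoters, and TGACNTCA was in 1 of the 11, Idi1, and in 2754 of the 27457. All motifs were searched on both strands, CCAAT does not occur within either of the others, and a match describes letters only.

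Sterol sensing and uptake genes had 4 members tested, all with lower means (median -0.33), and 0 of these had an unadjusted p under 0.05. Against day 1 replicate 1 all 4 were lower (median -0.36), and against replicate 2 there were 2 lower and 2 higher (median -0.17). Insig1, which holds SREBP in the endoplasmic reticulum and is itself an SREBP target, read 10.61 and 10.72 at day 1 and 10.45 and 10.10 at day 14 (-0.40 ± 0.38). Lipc, hepatic lipase, differed by -0.38, Lcat, which esterifies plasma cholesterol, by -0.29, and Scarb1, the HDL receptor, by -0.092.

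Scd, stearoyl-CoA desaturase, which makes monounsaturated fatty acids, was among the largest positive differences. It read 9.46 and 9.05 at day 1, 9.50 and 8.78 at day 3, and 11.35 and 11.12 at day 14. The difference was 1.98 ± 0.58 (3.94-fold, adjusted p = 0.241), and the other probe set of the gene lay at the floor on all 4 arrays, which brings the mean over probe sets to 0.99. The rest of the fatty acid and triglyceride synthesis list did not share its size: 4 of 8 members were higher and 4 lower (median 0.14, -0.14 and 0.082 against the separate day 1 arrays), and Scd was the only 1 of the 8 at an unadjusted p under 0.05.

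Srebf1, the transcription factor that drives fatty acid synthesis genes, read 10.02 and 10.09 at day 1 and 11.11 and 10.59 at day 14 (0.79 ± 0.42). Fasn, fatty acid synthase, read 10.55 and 9.56 against 10.33 and 10.55, within the range of day 1 (0.38 ± 0.62). Gpam, the first enzyme of glycerolipid synthesis, differed by -0.49 ± 0.51, and Elovl5, a fatty acid elongase, by -0.27 ± 0.23.

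Apolipoproteins split by gene. Of 10 tested, 4 were higher and 6 lower (median -0.079, -0.20 and -0.043 against the separate day 1 arrays), with 3 lower at an unadjusted p under 0.05 (4.50% of all features): Apoa4, Apoa1 and Apom. Apoa4, carried on chylomicrons and HDL, read 11.30 and 10.01 at day 1, 9.51 and 9.80 at day 3, and 8.94 and 8.89 at day 14 (-1.74 ± 0.45, adjusted p = 0.157). Apoa1, the main HDL protein, read 14.17 and 14.03, then 14.18 and 14.27, then 13.09 and 12.87 (-1.12 ± 0.34, adjusted p = 0.247), and its other probe set gave -1.52. Apoa1 thus lay lower at day 14 than on all 4 earlier arrays, whereas Apoa4 was already lower at day 3.

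Apom, an HDL protein that carries sphingosine phosphate, read 12.75 and 11.86 at day 1 and 11.63 and 11.35 at day 14 (-0.81 ± 0.27). Apob, the structural protein of very low density lipoprotein, read 11.16 and 12.92 at day 1 and 13.16 and 12.83 at day 14, so its difference of 0.96 ± 0.45 was 1.83 against replicate 1 and 0.080 against replicate 2. Other Apob probe sets gave 1.19 and -0.059, and those near the floor gave -0.49 and 0.0023.

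Among lipid droplet and fatty acid handling genes, Fabp5, a fatty acid binding protein, read 10.27 and 10.05 at day 1, 10.49 and 9.89 at day 3, and 8.85 and 9.03 at day 14 (-1.23 ± 0.29, adjusted p = 0.152). Plin2, which coats lipid droplets, read 12.36 and 12.05 at day 1 and 11.57 and 11.83 at day 14 (-0.51 ± 0.28). Fabp1, the liver form, read 13.13 and 14.12 against 13.71 and 13.87, inside the day 1 range. Acsl4, which activates fatty acids, read 9.52 and 11.31 against 11.10 and 11.77, with overlap (1.02 ± 0.50, 1.92 and 0.13 against the separate day 1 arrays). Slc27a2, of like function, differed by 0.35 ± 0.19. The 9 tested members had a median of 0.16, which was 0.30 against day 1 replicate 1 and -0.33 against replicate 2.

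Genes of amino acid breakdown were more often higher at day 14. Some of these enzymes strip nitrogen from amino acids, which the urea cycle then turns into urea. The list also holds one-carbon metabolism genes and others that do not release nitrogen, such as Ddc and Glul. Of 40 tested, 27 were higher and 13 lower, with 8 higher (against 5.55% of all features) and 1 lower at an unadjusted p under 0.05 and 0 past the adjusted threshold. The median was 0.26, and it was 0.26 against day 1 replicate 1 and 0.34 against replicate 2.

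Ddc, aromatic amino acid decarboxylase, read 8.40 and 8.50 at day 1, 9.54 and 9.43 at day 3, and 9.75 and 9.62 at day 14 (1.23 ± 0.27, adjusted p = 0.152). Hal, histidine ammonia lyase, read 10.36 and 10.36 at day 1 and 11.64 and 11.24 at day 14 (1.08 ± 0.26). Tdo2, tryptophan dioxygenase, read 10.61 and 11.10 against 11.98 and 11.81 (1.04 ± 0.23). These genes were above both day 1 arrays on both day 14 arrays, as were 363 of all 1909 features. Ddc had reached most of its difference by day 3.

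Cth, cystathionine gamma-lyase, which releases cysteine, read 11.09 and 11.75 at day 1 and 13.04 and 12.45 at day 14 (1.33 ± 0.32, adjusted p = 0.152). Its other probe set gave 0.62. Sds, serine dehydratase, a gene known to respond to glucagon, read 11.09 and 10.23 at day 1, 11.89 and 10.61 at day 3, and 12.40 and 11.97 at day 14 (1.52 ± 0.51, adjusted p = 0.322).

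Urea cycle genes had 5 of 6 tested members higher, with a median of 0.46, which was 0.61 against day 1 replicate 1 and 0.23 against replicate 2. Cps1, the first step, read 12.51 and 12.81 at day 1 and 13.41 and 13.18 at day 14 (0.64 ± 0.20, adjusted p = 0.266), but its other probe set gave -0.12. Arg1, arginase, read 10.37 and 11.46 against 11.66 and 11.79 (0.81 ± 0.31). Otc, ornithine transcarbamylase, read 9.0 and 10.77 against 11.02 and 10.69, overlapping at replicate 2, and differed by 0.98 ± 0.47. Asl, argininosuccinate lyase, differed by 0.28 ± 0.26.

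**Figure D3:**
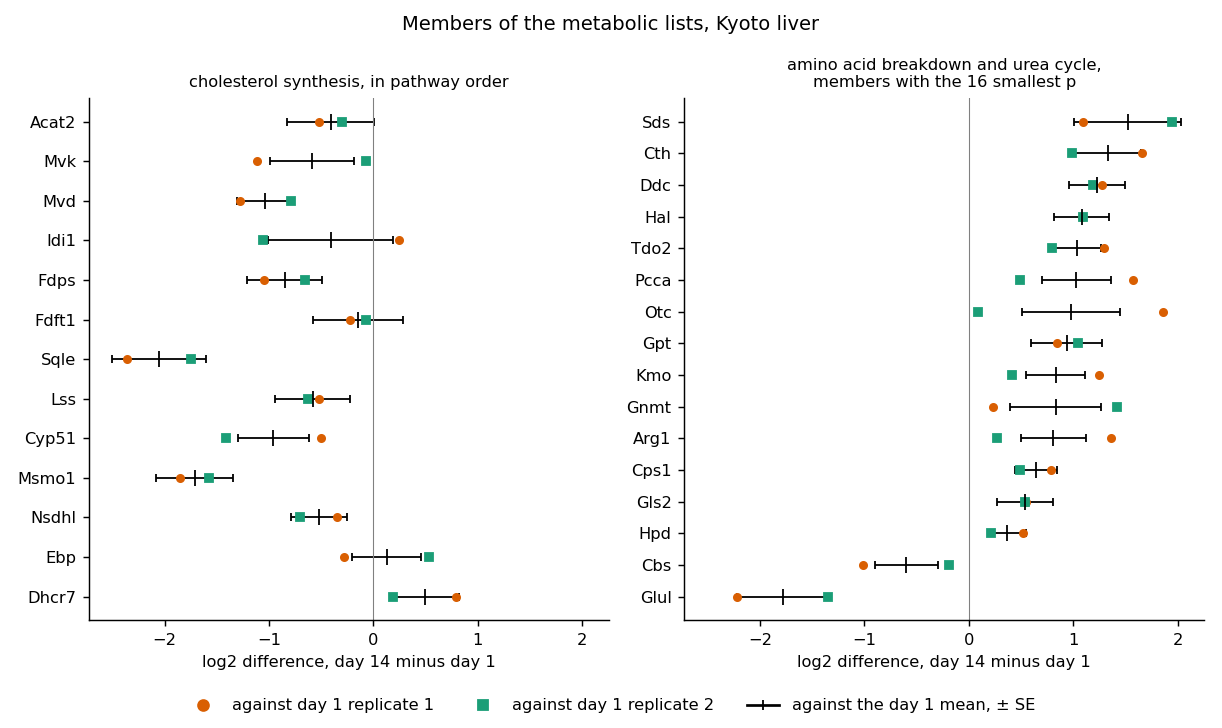
Log2 difference, day 14 minus day 1, for the 13 tested cholesterol synthesis genes in pathway order (left) and for the 16 amino acid breakdown and urea cycle genes with the smallest p (right); black bars are the difference from the day 1 mean ± standard error, circles the difference from day 1 replicate 1 and squares that from replicate 2. Sqle and Msmo1 lie lowest on the left, and on the right 14 genes lie above 0 while Cbs and Glul lie below.

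Glul, glutamine synthetase, which joins ammonia to glutamate in the hepatocytes next to the central vein, was the 1 member of the amino acid list that was lower at an unadjusted p under 0.05. Its representing probe set read 12.60 and 11.73 at day 1, 11.14 and 12.27 at day 3, and 10.39 and 10.37 at day 14 (-1.78 ± 0.44, adjusted p = 0.152). The gene has 3 other probe sets, which differed by -2.68 ± 0.43, -2.72 ± 0.38 and -2.52 ± 0.39. When every probe set was tested on its own, 2466 in all, these 3 passed the adjusted threshold (limma adjusted p = 0.0175, 0.00717 and 0.0145), while the representing one did not (adjusted p = 0.168). On each of the 4 probe sets both day 14 arrays lay below both day 1 arrays, which held for 365 of the 1909 features of the main fit.

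**Figure D4:**
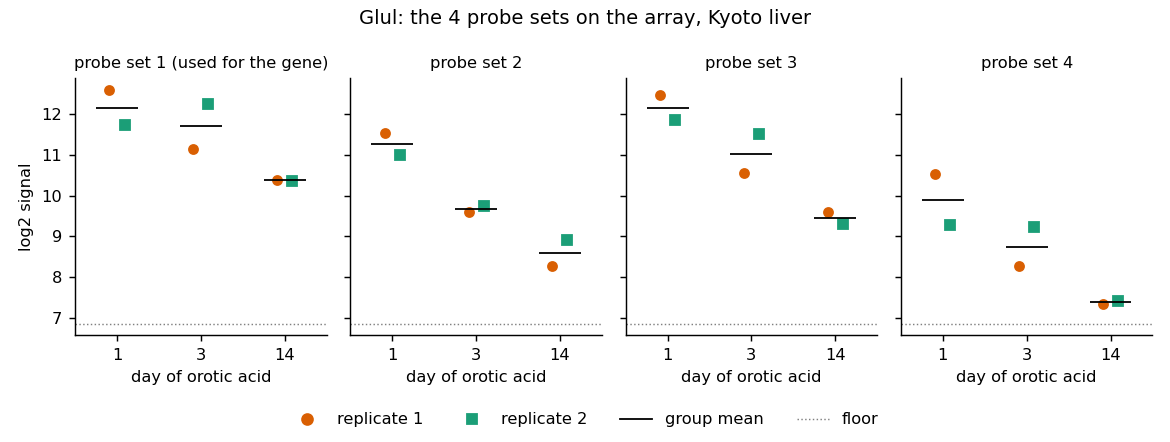
Log2 signal of the 4 Glul probe sets in each Kyoto array at days 1, 3 and 14, with circles for replicate 1, squares for replicate 2, black lines for group means and a dotted line at the floor. The day 14 means lie at 10.38, 8.59, 9.45 and 7.38 against day 1 means of 12.17, 11.27, 12.17 and 9.90.

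Genes known for a place in the liver lobule, periportal or pericentral, had 11 of 15 tested members higher (median 0.26, 0.55 and 0.27 against the separate day 1 arrays), with 4 higher (5.55% of all features) and 2 lower (4.50%) at an unadjusted p under 0.05. The higher ones, Hal, Cps1, Sds and Arg1, are known as periportal. The lower ones were Glul and Cyp1a2, both known as pericentral, the second named after its values were seen (-0.67). Another pericentral gene, Cyp2e1, differed by 0.26, and Pck1, a periportal gene of gluconeogenesis, read 13.21 and 13.43 against 12.82 and 12.59 (-0.61 ± 0.38).

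Pyrimidine and purine genes had 10 of 15 tested members higher (median 0.21, 0.22 and 0.27 against the separate day 1 arrays), 3 of them at an unadjusted p under 0.05 (5.55% of all features). Upb1, beta-ureidopropionase, the last step of uracil breakdown, read 12.59 and 12.13 at day 1, 13.48 and 12.99 at day 3, and 13.78 and 13.32 at day 14 (1.19 ± 0.28, adjusted p = 0.152). Dpyd, the first and rate-limiting step of the same route, read 7.79 and 9.77 at day 1 and 10.30 and 9.80 at day 14. Its difference of 1.27 ± 0.48 was 2.26 against day 1 replicate 1 and 0.28 against replicate 2. Dpys, the middle step, differed by -0.20 ± 0.25, less than its standard error, and its other probe set gave -0.045.

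Uox, urate oxidase, differed by 0.68 ± 0.28 and Nme2, a nucleoside diphosphate kinase, by 0.53 ± 0.25. Slc22a7, a transporter that carries orotate into hepatocytes, read 10.94 and 10.46 at day 1 and 10.77 and 11.05 at day 14 (0.21 ± 0.33).

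P450s and other phase I oxidases included Cyp2a1 and had 28 of 41 tested members higher. At an unadjusted p under 0.05, 9 were higher (5.55% of all features) and 1 lower (4.50%), and 7 were 2-fold or more higher without overlap (2.62%). The median of 0.32 was 0.51 against day 1 replicate 1 and 0.086 against replicate 2. Cyp2a2, a male-predominant testosterone hydroxylase, read 8.58 and 9.84 at day 1, 10.24 and 10.28 at day 3, and 10.77 and 10.75 at day 14 (1.55 ± 0.43, adjusted p = 0.214). Cyp3a9 read 7.99 and 10.24 against 10.89 and 11.54 (2.10 ± 0.83), and Cyp3a18 6.85, the floor, and 9.27 against 10.02 and 9.57 (at least 1.74). Cyp3a23-3a1, an inducible drug oxidase, read 13.03 and 13.98 against 14.41 and 14.44 (0.93 ± 0.29). In each of these 4 genes day 1 replicate 1 was the lowest array.

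The same array moved other liver gene lists. Conjugation and antioxidant enzymes had 30 of 41 higher, with a median of 0.18 that was 0.57 against day 1 replicate 1 and -0.10 against replicate 2. Gsta3, a glutathione transferase, read 6.85, the floor, and 8.57 at day 1, 9.19 and 8.17 at day 3, and 10.18 and 9.91 at day 14. Its difference was therefore at least 2.33 (SE 0.58, adjusted p = 0.152), 1.47 against replicate 2, and its other probe set lay at the floor on 3 of the 4 arrays. Gstt2, another transferase, read 10.65 and 11.97 at day 1 and 12.31 and 12.29 at day 14 (0.99 ± 0.36). Gsta1, of the same family, read 11.31 and 12.38 against 12.67 and 12.82 (0.90 ± 0.30), and Mgst2, a microsomal member, 10.14 and 10.14 against 10.56 and 10.86 (0.57 ± 0.24). Mgst2 alone of these 3 had day 1 arrays at the same level.

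Genes that follow growth hormone or sex in the rat liver had 18 of 28 higher (median 0.24), which was 0.56 against day 1 replicate 1 and -0.25 against replicate 2. Cyp2c12, a female-predominant P450, read 6.85, the floor, and 8.51 at day 1 and 9.14 and 9.17 at day 14 (at least 1.48). Cyp2c12 and the male-predominant Cyp2a2 were thus both higher at day 14, by 0.64 and 0.92 against day 1 replicate 2 alone. Cyp2c7, another P450 of this list, named after its values were seen, was lower (-0.77 ± 0.46). Igf1 and Ghr, the hormone and the receptor of this axis, differed by 0.17 ± 0.37 and -0.61 ± 0.47. The other probe sets of Igf1 gave both signs (-0.21, 0.035, -0.76 and 0.65), and those of Ghr gave the opposite sign (0.57 and 0.068).

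Igfbp1, a binding protein of IGF1 whose gene insulin represses and fasting induces, read 11.35 and 10.15 at day 1, 11.10 and 9.78 at day 3, and 8.36 and 8.76 at day 14. The difference was -2.18 ± 0.86 (4.54-fold lower, adjusted p = 0.412). The day 1 arrays lay more than 2-fold apart, and so did the day 3 arrays, while the day 14 arrays lay below all of them.

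Peroxisomal genes had 14 of 16 higher (median 0.44), which was 0.79 against day 1 replicate 1 and 0.059 against replicate 2. Acaa1b, a peroxisomal thiolase, read 8.25 and 8.66 at day 1 and 9.64 and 9.20 at day 14 (0.97 ± 0.40). Scp2, which cleaves branched substrates and carries sterols, differed by 0.79 ± 0.35, which was 1.33 against replicate 1 and 0.26 against replicate 2. The other Scp2 probe set, near the floor, gave 0.13. Hsd17b4, the bifunctional enzyme, differed by 0.73 ± 0.34, which was 1.45 and 0.0098. Mitochondrial fatty acid oxidation genes had 16 of 18 higher (median 0.17), which was 0.44 and -0.0089 against the separate day 1 arrays.

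In mitochondria, Echs1, enoyl-CoA hydratase, read 10.80 and 10.46 at day 1, 12.02 and 10.23 at day 3, and 11.83 and 11.73 at day 14 (1.15 ± 0.50). Cpt2, the inner-membrane carnitine transferase, differed the other way, 10.98 and 10.87 against 10.51 and 10.11 (-0.61 ± 0.26), and Cpt1a, its partner on the outer membrane, by 0.16 ± 0.35. Etfa, which passes electrons from fatty acid oxidation, read 8.23 and 10.18 at day 1 and 10.46 and 9.91 at day 14, with overlap (0.97 ± 0.46). Eci1, an isomerase, read 11.69 and 11.36 against 12.14 and 11.91 (0.50 ± 0.25), but another of its probe sets, well above the floor, gave -0.0045. Genes of oxidative phosphorylation and the citric acid cycle had 26 of 30 higher (median 0.20, 0.34 and 0.12 against the separate arrays). Of these, Atp5po and Atp5f1e, subunits of ATP synthase, differed by 0.76 ± 0.24 and 0.61 ± 0.25, Uqcrc2 of complex III by 1.09 ± 0.48 with overlap, and Mdh2, malate dehydrogenase, by -0.74 ± 0.32.

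**Figure D5:**
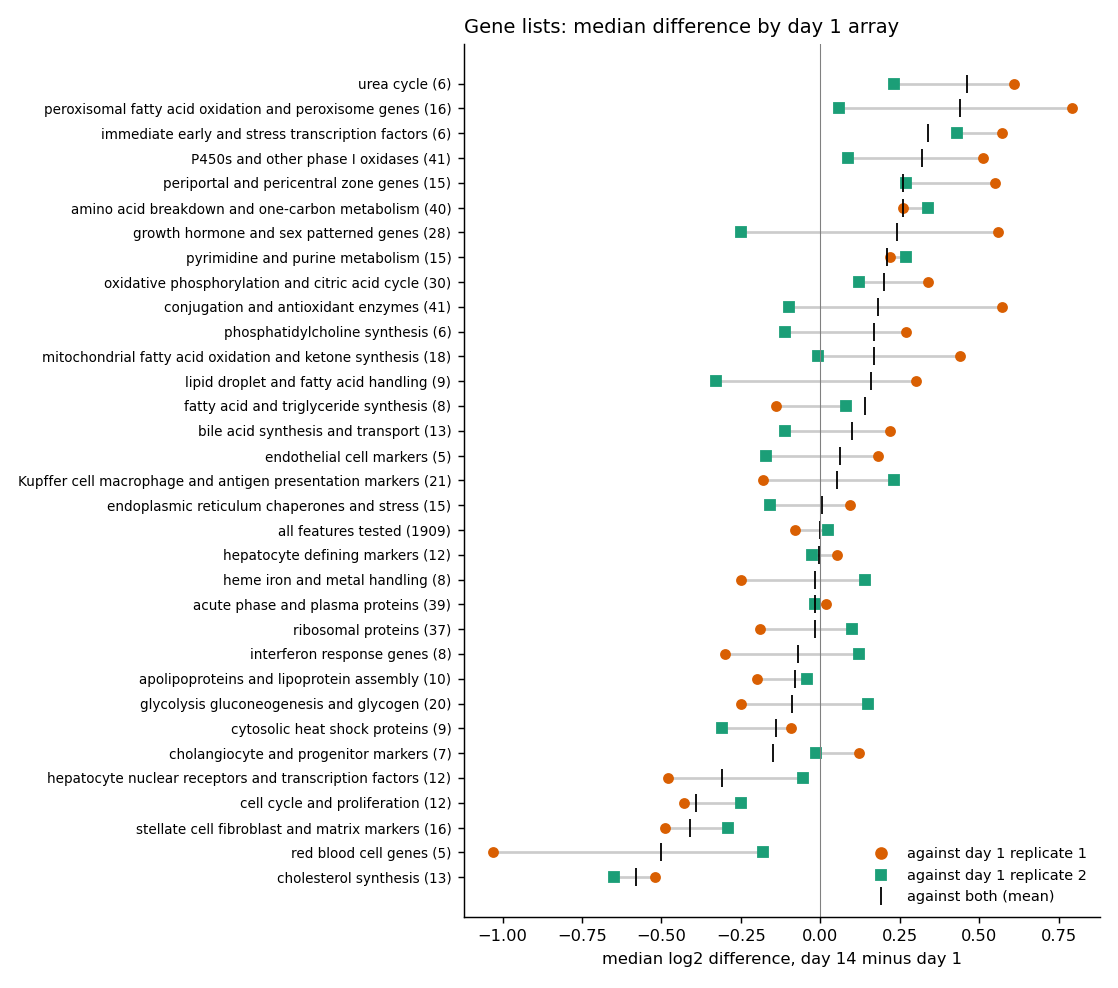
Median log2 difference, day 14 minus day 1, of each gene list with at least 5 tested members (number tested in brackets), against day 1 replicate 1 (circles), replicate 2 (squares) and their mean (bars). Cholesterol synthesis, stellate and matrix, cell cycle, urea cycle and amino acid lists lie on 1 side of 0 against both arrays, while conjugation, growth hormone patterned and lipid droplet lists lie on opposite sides.

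Bile acid synthesis and transport genes had 7 of 13 higher (median 0.10, 0.22 and -0.11 against the separate arrays). Cyp7a1, which starts the conversion of cholesterol to bile acids, read 9.41 and 10.82 at day 1 and 9.84 and 10.87 at day 14 (0.24 ± 0.49), spread alike on both days. Abcb11, the bile salt export pump, read 9.03 and 10.75 against 10.89 and 10.82 (0.97 ± 0.40). Abcb4, the phospholipid exporter of the same membrane, read 8.87 and 9.59 against 8.59 and 8.46 (-0.71 ± 0.37). Akr1d1, a steroid reductase of the pathway, read 9.90 and 10.97 against 10.98 and 11.07 (0.59 ± 0.32), so day 1 replicate 2 lay next to the day 14 arrays. Phosphatidylcholine synthesis genes had 3 of 6 higher (median 0.17, 0.27 and -0.11), and Pemt, which makes this lipid by methylation, differed by -0.21 ± 0.24.

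Stellate cell, fibroblast and matrix markers were lower in 15 of 16 tested members, 3 of them at an unadjusted p under 0.05 (4.50% of all features), with a median of -0.41. Against day 1 replicate 1 there were 15 of 16 lower (median -0.49) and against replicate 2 there were 12 of 16 (median -0.29). Igfbp3, which carries IGF1 in plasma and comes from non-parenchymal cells, read 9.69 and 9.14 at day 1, 8.96 and 8.62 at day 3, and 8.41 and 8.29 at day 14 (-1.07 ± 0.32, adjusted p = 0.247). Bgn, biglycan, read 10.53 and 9.92 against 9.41 and 9.18 (-0.92 ± 0.28), and Col1a2, a fibrillar collagen chain, 8.31 and 8.50 against 7.59 and 7.25 (-0.98 ± 0.39). Mmp14, a membrane metalloprotease, differed by -0.79 ± 0.38. In bulk liver RNA, fewer cells of a type and less RNA per cell cannot be told apart.

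Markers of other cell types are given beside these values. Red blood cell genes were lower in 5 of 5 tested members (median -0.50, -1.03 and -0.18 against the separate arrays), with a centred list mean of 0.95 and -0.0053 at day 1 and -0.37 and 0.17 at day 14, so day 1 replicate 1 was the highest of the 4. Hba-a3 and Hbb-b1, globin chains, read 9.21 and 7.99, and 12.32 and 11.47, at day 1, against 7.63 and 7.66, and 10.72 and 11.86, at day 14. Their part in the differences from day 1 replicate 1 was not tested.

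Kupffer cell and antigen presentation markers had 12 of 21 higher (median 0.053), which was 7 of 21 (-0.18) against day 1 replicate 1 and 15 of 21 (0.23) against replicate 2. Endothelial markers had 3 of 5 higher (median 0.063, 0.18 and -0.17 against the separate arrays). The direction of both lists thus turned with the day 1 array, with 0 members at an unadjusted p under 0.05 in either. Cholangiocyte and progenitor markers had 2 of 7 higher (median -0.15, 0.12 and -0.014 against the separate arrays), of which Cdh17, a cadherin, differed by 0.94 ± 0.40 while its other probe set gave -0.15. Of pancreas and fat markers, Cela1 differed by -0.25, Amy2a3 by 0.69, Cfd by 0.41 and Lep by 0.28, and the single lymphocyte marker tested, Lck, by 0.14. None of these 5 genes had an unadjusted p under 0.05.

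Cell cycle and growth genes were lower in 9 of 12 tested members (median -0.39, -0.43 and -0.25 against the separate arrays), 3 at an unadjusted p under 0.05 (4.50% of all features). Ccnd1, cyclin D1, which starts the cell cycle, read 9.16 and 10.27 at day 1, 9.34 and 9.61 at day 3, and 8.06 and 8.49 at day 14 (-1.44 ± 0.44, adjusted p = 0.247). Ccnd3, another D cyclin, read 8.72 and 9.28 against 8.25 and 8.27 (-0.74 ± 0.29), and Tubb5, a tubulin, 11.14 and 10.40 against 9.84 and 10.01 (-0.84 ± 0.36). Both cyclins were lower on each day 14 array than on each day 1 array, as were 365 of all 1909 features. Jun, an immediate early factor, differed the other way, 8.11 and 8.21 against 8.82 and 9.46 (0.98 ± 0.47).

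Gadd45a, a growth arrest gene induced by stress, read 6.85, the floor, and 7.26 at day 1, 8.54 and 7.69 at day 3, and 8.55 and 8.41 at day 14 (at least 1.42, adjusted p = 0.355). Its other probe sets gave 0.82, 0.5 and 0, with 2, 3 and 4 of the 4 arrays at the floor. The list of immediate early and stress factors that Gadd45a belongs to had 3 of 6 higher (median 0.34, 0.57 and 0.43 against the separate arrays). H2ax, a histone variant that marks DNA breaks once phosphorylated, read 8.63 and 8.78 at day 1 and 7.5 and 7.67 at day 14 (-1.12 ± 0.32, adjusted p = 0.241).

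Hepatocyte transcription factors had 3 of 12 higher (median -0.31, -0.48 and -0.054 against the separate arrays), with 2 in each direction at an unadjusted p under 0.05 (5.55% of all features higher, 4.50% lower). Foxa2, a forkhead factor active in fasting, read 7.10 and 6.93 at day 1, 8.18 and 6.85 at day 3, and 8.52 and 8.50 at day 14 (1.49 ± 0.47, adjusted p = 0.269). The day 1 values lay near the floor, and with a floor at the 40th percentile the difference was 0.93. Foxa3, a paralog, read 8.31 and 8.52 against 7.57 and 7.52 (-0.87 ± 0.33), so the paralogs differed in opposite directions. Onecut1, another liver factor, differed by 1.12 ± 0.50 and Cebpb, an inducible one, by -0.95 ± 0.33.

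Chaperone genes had a few members that were lower. Hsph1, a cytosolic heat shock protein, read 8.53 and 9.31 at day 1 and 7.63 and 7.90 at day 14 (-1.16 ± 0.34), and its list had 4 of 9 higher (median -0.14, -0.092 and -0.31 against the separate arrays). Dnajb9, a chaperone of the endoplasmic reticulum induced by unfolded proteins, read 8.59 and 9.50 against 7.5 and 7.98 (-1.31 ± 0.46), and its list had 8 of 15 higher (median 0.0042, 0.094 and -0.16).

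Ribosomal protein genes had 18 of 37 higher (median -0.018, -0.19 and 0.099 against the separate arrays). Rpl5 read 6.85, the floor, and 7.26 at day 1, 6.85 and 6.92 at day 3, and 8.69 and 8.54 at day 14 (at least 1.56, adjusted p = 0.152). Rps24 read 6.85, the floor, and 8.96 at day 1 and 10.10 and 9.73 at day 14 (at least 2.02, and 0.96 against day 1 replicate 2). Both genes stood apart from a list whose median was near that of all features.

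Other genes among the 15 largest differences in a direction were of mixed function. Higher were Slco1a4, an organic anion importer (9.06 and 11.03 at day 1, 11.87 and 11.83 at day 14), and Srsf5, a splicing factor (6.85, the floor, and 8.91 at day 1, 9.67 and 9.35 at day 14). Ptgr1, a prostaglandin reductase, read 8.94 and 7.20 at day 1 and 9.4 and 9.48 at day 14. Akr7a3, an aldehyde reductase that detoxifies aflatoxin and was named for the stricter rule above, read 8.94 and 8.87 at day 1 and 10.21 and 10.19 at day 14 (1.30 ± 0.31, adjusted p = 0.152). Of these genes, Akr7a3 had day 1 arrays that lay close together.

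Lower were Pnrc1, a nuclear receptor coactivator (10.11 and 9.51 at day 1, 8.18 and 8.31 at day 14), and Avpr1a, the liver vasopressin receptor (10.74 and 9.28 at day 1, 8.27 and 8.90 at day 14). Rab11b, a vesicle GTPase, read 10.45 and 9.32 at day 1 and 8.73 and 8.73 at day 14 (-1.16), and its other probe set gave -0.38. Pdxkl1 read 9.12 and 8.39 at day 1 and 7.89 and 6.85, the floor, at day 14. In each of these genes day 1 replicate 1 was the highest array of the 4.

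The remaining lists had medians near 0 that changed sign with the day 1 array. Glycolysis, gluconeogenesis and glycogen genes had 7 of 20 higher (median -0.088), which was 5 of 20 (-0.25) against replicate 1 and 14 of 20 (0.15) against replicate 2, with Pdha1 of pyruvate dehydrogenase at 0.88 ± 0.31 and Pc, pyruvate carboxylase, at -0.65 ± 0.30. Acute phase and plasma protein genes had 18 of 39 higher (median -0.017, 0.018 and -0.018 against the separate arrays). Interferon response genes had 3 of 8 higher (median -0.069, -0.30 and 0.12), and heme, iron and metal genes 4 of 8 (median -0.016, -0.25 and 0.14).

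The 14-day arrays of Wistar rats allow a partial comparison, against Wistar day 3 because Wistar day 1 was not analysed here. The test of the difference between the Kyoto change from day 1 to 14 and the Wistar change from day 3 to 14 passed the adjusted threshold for 0 features (0%), with 164 at an unadjusted p under 0.05. The smallest adjusted p was 0.131, for Cyp2a1, whose Wistar signals were 12.51 and 12.78 at day 3 and 12.84, 12.17 and 12.65 at day 14. The Wistar arrays on plain chow read 11.89, 11.58 and 12.09. Kyoto rats at day 14 thus read close to Wistar rats on orotic acid at both times, and above those on plain chow. Kyoto rats at day 1 read below all of these Wistar arrays.

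For Sqle and Msmo1 the Wistar difference was -0.00025 and 0.18, against -2.05 and -1.71 in Kyoto (difference of differences -2.05 ± 0.61 and -1.89 ± 0.50, limma adjusted p = 0.439 and 0.407). For Glul it was -0.24 against -1.78 (-1.55 ± 0.60). Scd differed by 2.19 in Wistar and 1.98 in Kyoto, a difference of -0.22 ± 0.78. Its Wistar signals were 10.59 and 8.85 at day 3 and 11.89, 12.54 and 11.30 at day 14. On plain chow they were 12.33, 10.74 and 11.96, so Wistar day 14 was near the plain chow level and day 3 was mostly below it. The time spans are unequal, so these values do not compare the strains over the same days.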

How the data were processed

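The values are linear-scale intensity signals of probe sets that the authors deposited. Per the submitters' processing notes they came from MAS5, with a scaling target not given in the sources used here. The table had 4502 rows, of which 24 were controls. A further 375 with a blank on 1 or more arrays were dropped, and 0 of those would have passed the filter. Probe sets took gene names from the platform annotation: 3700 had 1 symbol, 229 several and 573 none.

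Because the arrays' 2% trimmed means spread by 36.1% (787 to 1071), log2 signals were quantile normalized. Signals under the 25th percentile, 115, were set to it. Each gene was represented by its probe set of highest mean, and the upper 60% by mean, 1909 features (1502 with 1 symbol), were tested with limma 3.58.1 in R 4.3.3 (6 group means, 14 arrays, 8 residual degrees of freedom, intensity trend). The model was tested on simulated data. The number of arrays limits the precision.

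Named were every gene past the adjusted threshold, the 15 largest differences a direction among genes at an unadjusted p under 0.05 without overlap, up to 4 genes of smallest p in each list described, and a set of lipid, pyrimidine and hormone genes; others are marked. Members of that set that were not tested are not described. The 4 arrays, the 36 gene lists and the rules were chosen with earlier results of these data known. Alternatives in scaling, floor, filter, probe set rule and fit, and leaving out each array, are given in the closing section.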

Additional observations from a re-analysis of the deposited data

How the results depend on the processing

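With 2 arrays a day, the counts depended most on which array was left out. Of 30 alternatives, 14 left out an array in turn. Over these, the features past the adjusted threshold ran from 0 to 161, those at an unadjusted p under 0.05 from 48 to 267 higher and 46 to 199 lower, those 2-fold or more apart without overlap from 37 to 191 higher and 24 to 79 lower, and those that differed from the Wistar change from 0 to 100. The highest values of all were without Kyoto day 1 replicate 2, which leaves day 1 replicate 1 alone in its group, assumed to vary like the other groups. Without Kyoto day 1 replicate 1 the one feature past the threshold was Ppdpf, whose day 1 signals were 11.01 and 7.84, and Cyp2a1 differed by 1.77.

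Among the other alternatives, the adjusted count was 3 with no filter, 2 with the mean of probe sets (Cyp2a1 and Glul), 4 with every probe set on its own, and 0 with the compared groups alone, with Kyoto arrays alone and with array weights. The count at an unadjusted p under 0.05 was 70 higher with the compared groups alone, 69 higher and 40 lower with array weights, and 144 lower with no filter. The count of 2-fold lower features was 14 with the upper 40% tested, 38 with every probe set on its own and 39 without the 3 arrays that have blank rows, an alternative chosen after seeing the data in which Ppdpf and not Cyp2a1 (adjusted p = 0.144) passed. With no filter 1 feature differed from the Wistar change. The cause of these shifts was not tested.

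Cyp2a1 kept its direction in all 30, at 1.72 to 1.97. Of the 116 named genes so recomputed, 99 kept theirs in each alternative that gave a value and 17 did not. With 1 array left out, the differences of 14 of these 17 crossed 0: Etfa -0.0021 to 1.96, Fabp1 -0.34 to 0.66, Cyp7a1 -0.46 to 0.95, Dpys -0.42 to 0.004, Amy2a3 -0.45 to 1.84, Lcat -0.67 to 0.098, Lck -0.0034 to 0.28, Scarb1 -0.38 to 0.2, Fasn -0.11 to 0.88, Slc22a7 -0.029 to 0.46, Ebp -0.28 to 0.53, Idi1 -1.05 to 0.25, Asl -0.044 to 0.6 and Alb -0.1 to 0.072. With the mean of probe sets Igf1 gave -0.022 and Ghr 0.007, with every probe set on its own Igf1 gave -0.21, with the compared groups alone Cdh17 gave -0.15, and with signals as deposited Alb gave 0.037. Without the arrays that have blank rows, Fabp1 gave -0.33, Cyp7a1 -0.46, Dpys 0.0045, Amy2a3 -0.45, Lcat 0.095, Lck -0.0026 and Scarb1 0.20. Over the alternatives the list median ran from -0.77 to -0.44 for cholesterol synthesis, from 0.23 to 0.34 for amino acid breakdown and from -0.71 to -0.23 for stellate and matrix markers. Signals near the floor and the number of arrays limit the rest.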
